A study of Mus musculus with 9 samples.

Results

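The 64 genes described here encode the coats, tethers and retrieval receptors that carry cargo between the endoplasmic reticulum (ER) and the Golgi. They were chosen by a rule on the symbol alone among the 24421 genes of a table of mouse colon epithelium. The rule uses no measured value, though the members were chosen with earlier results of these data known. They fall into 7 classes. These are 13 genes of the COPII coat and its ER exit sites, 11 Tmed genes taken as p24 cargo receptors and 8 subunits of the COPI coatomer. The others are 3 KDEL receptors, 15 subunits of the TRAPP tether, 8 of the COG tether, and 6 Golga genes. Of the 64, 62 were tested, and 55 had at least 10 TPM (transcripts per 1000000, a level per length of transcript) in every one of the 9 libraries. Tmed11 and Trappc3l had no read in any library, which allows levels of up to 0.818 and 0.465 TPM, the worth of 3 reads in the shallowest library (counting error only).

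Messenger RNA was sequenced from 3 populations of cells sorted from the colons of adult female C57BL/6J mice, with 3 libraries for each population. Lgr5-enriched cells of the crypt bottom were sorted as Epcam+, Cd44+ and Kit-negative, goblet-enriched cells of the crypt bottom as Epcam+, Cd44+ and Kit+, and enterocyte-enriched cells of the crypt top as Epcam+, Cd44-negative and Cd66a-high. The sorts removed dead cells, doublets and cells that stained for leukocyte or endothelial antigens. The labels name no transgene and no treatment for any group, and each population was defined by its surface antigens, not by a lineage reporter. The study's design gives each replicate of a population its own mouse, with 3 mice in all, though the sex-linked genes given below show that the libraries numbered 1 did not all come from 1 female mouse.

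Secretory and membrane proteins leave the ER in COPII vesicles, which form at exit sites where Sec16 scaffolds recruit the GTPase Sar1, the inner coat of Sec23 and Sec24 and the outer coat of Sec13 and Sec31. COPI vesicles carry receptors and escaped ER residents back, the p24 proteins cycle with both coats, and the KDEL receptors capture ER chaperones in the Golgi and return them. TRAPP, COG and the golgins catch incoming vesicles and keep the Golgi stacks supplied. Goblet cells secrete the mucin Muc2, a very large glycoprotein that passes through all of these steps.

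Each population had the highest sum of its own markers, and the enterocyte-enriched libraries also held goblet markers. Summed over 10 goblet markers, the level was 1569 to 1765 TPM in the Lgr5-enriched, 49075 to 65032 TPM in the goblet-enriched and 15547 to 23177 TPM in the enterocyte-enriched libraries. The 8 Lgr5 stem markers summed to 1212 to 1394, 578 to 634 and 144 to 239 TPM, and the 8 colonocyte markers to 199 to 299.6, 552 to 1034 and 5314 to 9102 TPM, in the same order. No listed marker in the table was at 0 in every library. Not all goblet markers followed their sum. In Lgr5-enriched, goblet-enriched and enterocyte-enriched cells Zg16 had means of 95.2, 345 and 5481 TPM and Tff3 of 48.1, 1120 and 1918 TPM. Fcgbp (28.2, 1247 and 1454 TPM) and Clca1 (54.4, 2770 and 2756 TPM) overlapped between the latter populations. Muc2, Spink4, Agr2, Reg4, Atoh1 and Spdef had their highest mean in goblet-enriched cells. The 8 leukocyte markers reached 247 TPM in enterocyte-enriched replicate 1 and 145 TPM in enterocyte-enriched replicate 2, mostly Lyz2 (232 and 133 TPM), against at most 25.2 TPM elsewhere, while Ptprc, the pan-leukocyte antigen, was at or below 1.195 TPM in all libraries. Enteroendocrine markers summed to 157 to 298, 13.1 to 79.7 and 149 to 239 TPM in the same order of populations, and stromal and endothelial markers to at most 9.27 TPM. Rn45s, the ribosomal RNA precursor, stood at 49046 TPM in Lgr5-enriched replicate 1 and at 2356 to 6009 TPM elsewhere. The library labelled enterocyte-enriched replicate 1 went against the female label, with the Y-linked gene Eif2s3y at 80.7 TPM and Xist at 0.128 TPM, against at most 0.325 TPM and 110.3 to 204 TPM in the others. The replicate number 1 therefore joins different animals wherever the number is used as a block. Recovered depth was 11.2 M to 26.8 M reads, where a single read on a 1 kb transcript stands for 0.0958 to 0.208 TPM. In libraries from sorted cells, fewer cells of a type and less RNA per cell cannot be told apart, and a TPM is a share of each library's transcripts, not an amount per cell.

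In the TPM values as deposited, the goblet-enriched libraries stood above both other populations across the whole machinery, and the latter lay close together. The sums given here were not rescaled. The 64 genes summed to 5402, 5307 and 5482 TPM in the 3 Lgr5-enriched libraries, to 10852, 8983 and 9288 TPM in the goblet-enriched and to 5266, 4980 and 5442 TPM in the enterocyte-enriched libraries. The goblet-enriched mean was 1.8 times the Lgr5-enriched and 1.86 times the enterocyte-enriched mean. Its libraries overlapped neither of those populations, which overlapped each other. The classes differed in how far they followed this. The KDEL receptors had the largest ratio of summed TPM, goblet-enriched to Lgr5-enriched, at 3.06, followed by COG at 1.92, COPI at 1.9, p24 at 1.87, COPII at 1.65 and the golgins at 1.56, and TRAPP had the smallest, 1.02.

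**Figure D1:**
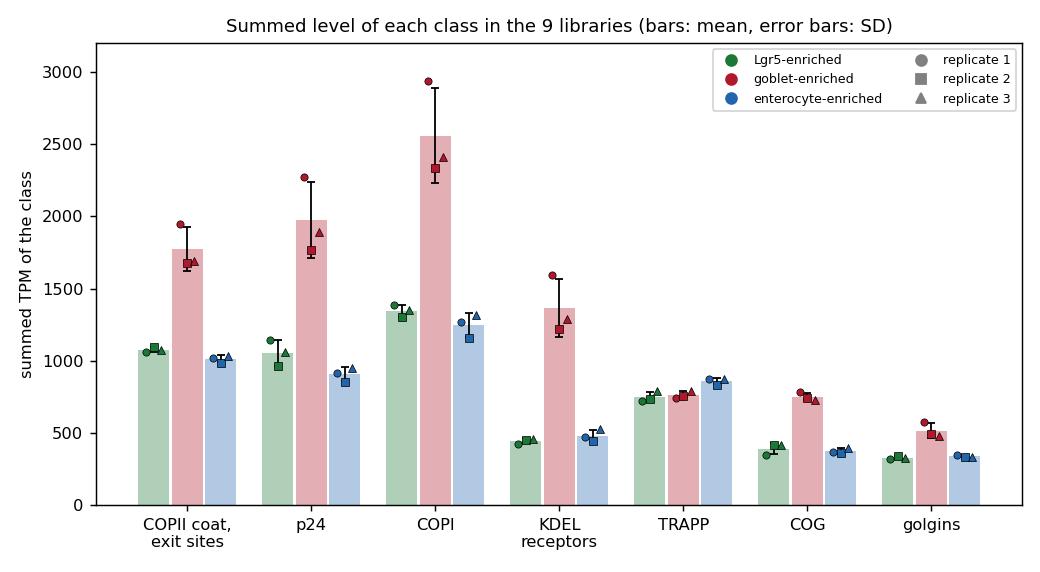
Summed TPM of each of the 7 classes (vertical axis) in the 9 libraries, with bars for the mean and error bars for the SD over 3 libraries. In 6 classes the goblet-enriched libraries lie above all others, while TRAPP stays between 723 and 874 TPM in all 9.

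The 3 pairwise comparisons and an overall F test were made on log2(TPM + 1) with limma, a linear model with moderated variances, over the 12888 genes at or above 1 TPM in at least 3 libraries. The threshold for a call was 0.05, for p-values adjusted by Benjamini-Hochberg over all of those genes. Against the Lgr5-enriched libraries, 31 of the 62 tested members were called higher in the goblet-enriched libraries, where 10.7% of all tested genes were, and 5 were called lower, where 23.6% of all were. The median log2 fold change of the members was 0.46, against -0.26 for all tested genes. Against the enterocyte-enriched libraries, 36 members were called higher in the goblet-enriched (28.2% of all genes) and 4 lower (15.9% of all), with a median of 0.53 against 0.20 over all genes. Between the enterocyte-enriched and the Lgr5-enriched libraries, 4 members were higher (12% of all genes) and 9 lower (37.6% of all), with a median of -0.05 against -0.35. The counts of lower members rested on single libraries: the 5 lower in goblet-enriched than in Lgr5-enriched cells came to 1 without Lgr5-enriched replicate 3, to 2 without goblet-enriched replicate 2 and to 3 without Lgr5-enriched replicate 1 or 2, enterocyte-enriched replicate 2 or goblet-enriched replicate 3. The 4 lower in goblet-enriched than in enterocyte-enriched cells came to 2 without enterocyte-enriched replicate 3 or goblet-enriched replicate 2. The 9 lower in enterocyte-enriched than in Lgr5-enriched cells came to 3 without Lgr5-enriched replicate 3 or enterocyte-enriched replicate 1 and to 4 without enterocyte-enriched replicate 2. The 4 higher came to 2 without any 1 of these, Lgr5-enriched replicate 1 or enterocyte-enriched replicate 3. These comparisons share libraries, so their values are given side by side and are not independent of each other.

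Any difference among the 3 populations was called for 43 of the 62 members by the F test, a share close to the 63.1% of all tested genes. The direction was uneven. Higher in the goblet-enriched libraries than in both other populations were 31 members (8.06% of all genes), in the Lgr5-enriched libraries 4 (14.8% of all) and in the enterocyte-enriched libraries 2 (7.92% of all). The 31 were 7 of 8 COPI, 7 of 13 COPII, 5 of 10 tested p24, 5 of 8 COG, 3 of 3 KDEL receptor and 4 of 6 Golga genes, and none of the 14 tested TRAPP genes. The 4 came to 0 without Lgr5-enriched replicate 3, to 1 or 2 without any other single library but goblet-enriched replicate 1, and the 2 to 1 without Lgr5-enriched replicate 1 or 3, enterocyte-enriched replicate 1 or 3 or goblet-enriched replicate 2. No pair of populations was called different for 17 members, of which 9 were TRAPP subunits. The share of all tested genes with no pair called was not counted. In 21 of the 31, goblet-enriched replicate 1 was the highest of the 3 goblet-enriched libraries, and without it 27 members were higher there than in both other populations.

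Scaling bears on all 3 comparisons, most on the one that does not involve goblet-enriched cells. When the TPM values were rescaled by the median of ratios, the median log2 fold change of all genes moved from -0.26 to -0.05 for goblet-enriched against Lgr5-enriched, from -0.35 to 0.02 for enterocyte-enriched against Lgr5-enriched and from 0.20 to 0.04 for goblet-enriched against enterocyte-enriched. Of all genes called in the goblet-enriched against Lgr5-enriched comparison, 31.3% were higher as deposited and 54.3% after rescaling. The members then counted 36 higher and 2 lower. For goblet-enriched against enterocyte-enriched cells the share of all called genes that were higher went from 63.9% to 48.1%. The members there went from 36 higher and 4 lower to 28 and 6, and their median log2 fold change from 0.53 to 0.35. Of the members called in the enterocyte-enriched against Lgr5-enriched comparison, 30.8% were higher as deposited (4 against 9) and 96.2% after rescaling (25 against 1), so the direction of those calls differed with the scaling. With the replicate number as a block (replicate block), the same comparison gave 10 higher and 15 lower. Members called with the block and not in the fit without it between enterocyte-enriched and Lgr5-enriched cells, with both adjusted p, were Sar1a (0.0383, against 0.0569), Sec13 (0.0483, against 0.127), Sec23a (0.0279, against 0.128), Tmed7 (0.0107, against 0.18), Trappc5 (0.0243, against 0.0557), Trappc13 (0.00559, against 0.105), Cog2 (0.0496, against 0.103) and Golga2 (0.0431, against 0.0704), besides those given with their levels. Each of these 8 was also called under at least 1 other alternative. In the same way Trappc1 and Trappc6b were called between goblet-enriched and Lgr5-enriched cells (0.0354, against 0.116, and 0.0328, against 0.125) and Golga1 between goblet-enriched and enterocyte-enriched cells (0.0251, against 0.108). The direction of the calls for goblet-enriched cells did not turn under any of the 21 alternatives run.

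**Figure D2:**
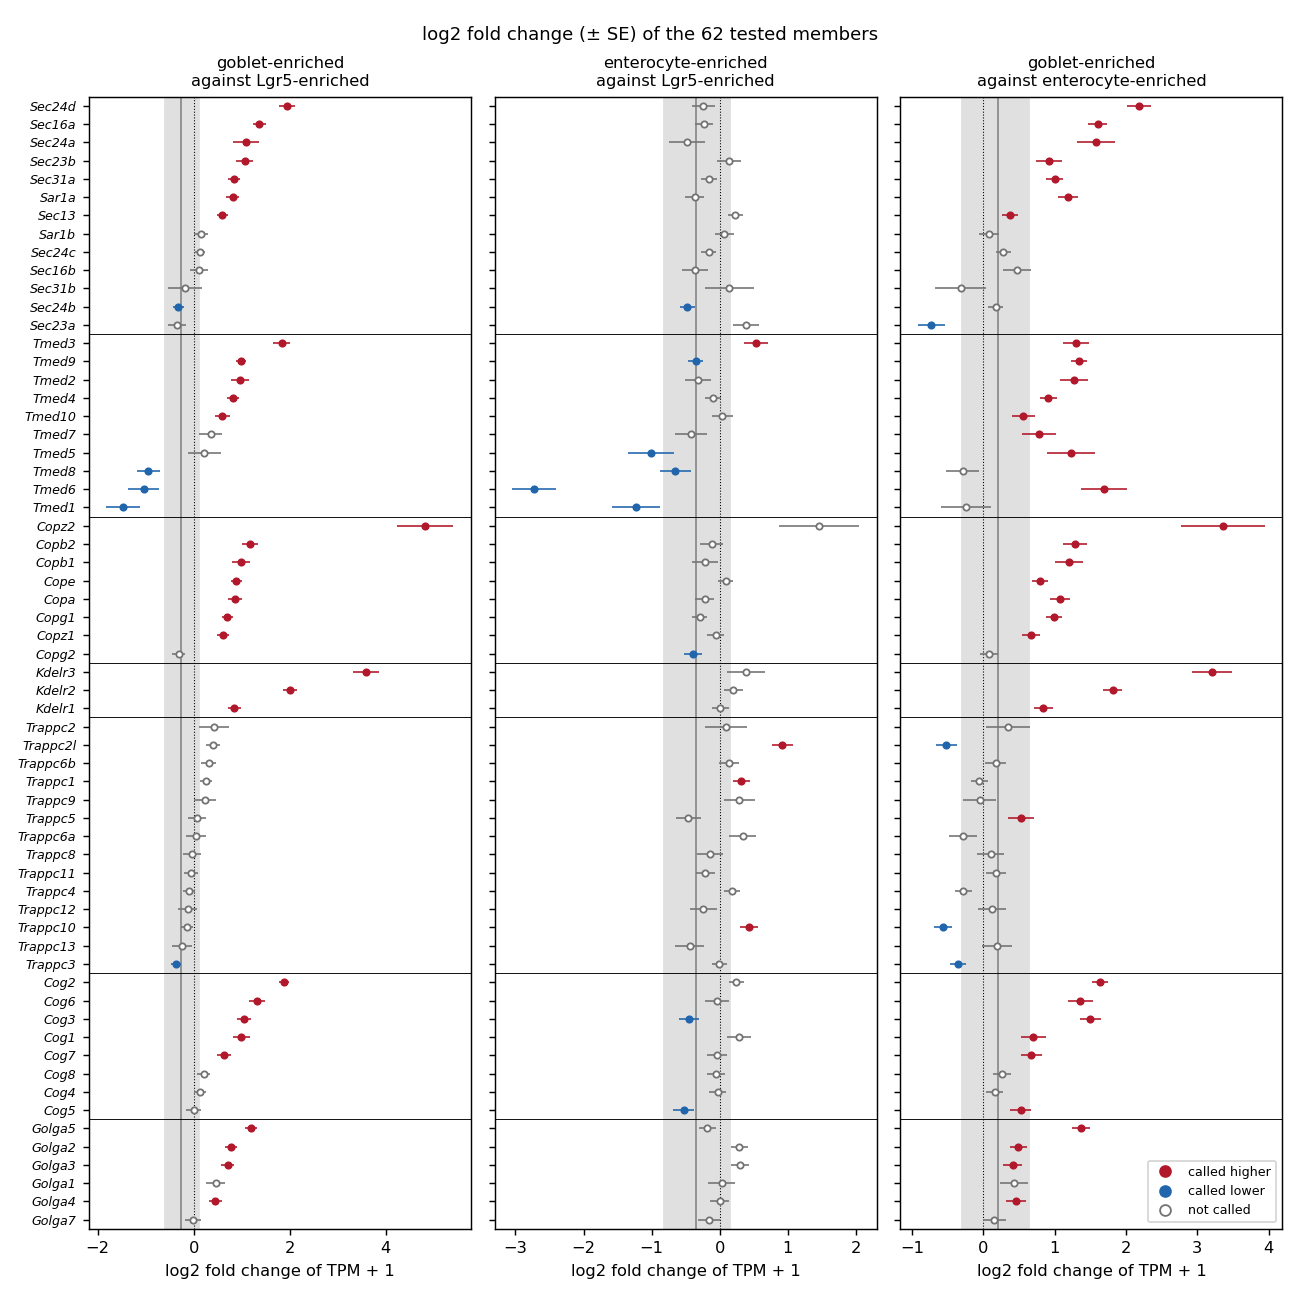
log2 fold change of TPM + 1 (horizontal axis, ± SE) of the 62 tested members, ordered by class, in the 3 comparisons. Grey bands hold the middle 50% of all tested genes and the grey line their median. In the goblet-enriched against Lgr5-enriched panel 31 members are marked as called higher and 5 as called lower, in the enterocyte-enriched against Lgr5-enriched panel 4 and 9.

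Promoters were read from RefSeq sequence on GRCm38.p6, taking 300 bases a promoter, 250 before and 50 after the start. Of the 64 members, 54 had a sequence there, with 60 promoters among them, and a gene was counted as holding an element if any of its promoters did. Searched on either strand were TGACGTG and GCCACGT, short elements around an ACGT core that are known as targets of the secretory and unfolded protein regulators XBP1, ATF6 and the CREB3L family, and the longer ER stress element, CCAAT and CCACG with 9 bases between them. GCCACGT was present in 15 of 54 members (27.8%), against 2.95% of all 27025 genes with a promoter and 4.59% of the tested genes. TGACGTG was present in 7 members (13%), against 2.22% of all and 3.26% of the tested genes. The longer element was in none, against 0.137% of all genes. Among the 28 members with a promoter that were higher in the goblet-enriched libraries than in both others, 11 held GCCACGT (39.3%) and 4 TGACGTG (14.3%). Among the other 26 the counts were 4 (15.4%) and 3 (11.5%). No test was made on these shares, and a match is a run of letters, not a site shown to be bound.

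The 30 bases around the match are shown for 3 members that were higher in the goblet-enriched libraries than in both others and for 2 that hold the same letters and were called in no comparison of the fit described above, though under some alternatives, read along the gene's strand. Capitals mark the match, which in Kdelr3, Sec24d and Sec16b is an overlap of both elements on opposite strands.
Kdelr3 (chr15:79516367-79516396, plus strand): tggccgccccGCCACGTCAccgcgcggcca
Sec24d (chr3:123267460-123267489, plus strand): cccgggcgccTGACGTGGCactagcaaccc
Copb1 (chr7:114254688-114254717, minus strand): cgcccccttcCACGTCAgccaaggacttgg
Sec16b (chr1:157506742-157506771, plus strand): tctgtgtggcTGACGTGGCacggcagtttg
Trappc2 (chrX:166440710-166440739, plus strand): agcagtcccgGCCACGTctcgcgagagcat
The match began 31 bases before the RefSeq start in Kdelr3, 26 in Sec24d, 27 in Copb1, 44 in Sec16b and 35 in Trappc2. Sec24d and Sec16b carried the same 9 letters and Kdelr3 their reverse complement. By the GENCODE M21 annotation the Kdelr3 window lies outside the gene, while all 30 bases in Sec24d, Sec16b and Trappc2 and 24 in Copb1 lie within the gene's extent.

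In the COPII coat, 7 of 13 components were higher in goblet-enriched cells than in both other populations and 1, Sec24b, was highest in Lgr5-enriched cells. Sar1a, the GTPase that starts the coat, stood at 148, 144 and 122 TPM in the Lgr5-enriched, at 288, 225 and 220.1 TPM in the goblet-enriched and at 97.1, 117 and 105 TPM in the enterocyte-enriched libraries. Its paralog Sar1b, which is needed for chylomicron export in the gut, stood at 99.2, 78.9 and 87.4 TPM in Lgr5-enriched, 118, 88.8 and 90.4 TPM in goblet-enriched and 98.1, 88.8 and 91.8 TPM in enterocyte-enriched libraries. Sar1a was higher in goblet-enriched than in Lgr5-enriched libraries by a log2 fold change of 0.81 ± 0.14 (SE, adjusted p = 0.0031), with no overlap, while for Sar1b the 3 populations overlapped and the change was 0.15 ± 0.14 (adjusted p = 0.429).

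Sec16a, the main scaffold of ER exit sites, was measured at 50.2, 67.4 and 54.6 TPM in Lgr5-enriched, 149, 158 and 139 TPM in goblet-enriched and 45.3, 52.3 and 47.9 TPM in enterocyte-enriched cells. Every goblet-enriched library was above every other, by a log2 fold change of 1.37 ± 0.13 against Lgr5-enriched (adjusted p = 0.000148) and 1.60 ± 0.13 against enterocyte-enriched cells (adjusted p = 5.83e-05). Sec16b, the shorter paralog, gave 29.1, 42.1 and 47.7 TPM in Lgr5-enriched, 37.7, 44.4 and 43.8 TPM in goblet-enriched and 25.9, 31.7 and 33.1 TPM in enterocyte-enriched libraries. It was not called in the fit described above, where its adjusted p was 0.145 for enterocyte-enriched against Lgr5-enriched and 0.0746 for goblet-enriched against enterocyte-enriched cells. With the replicate block these were 0.0278 and 0.0107, with array weights 0.00421 and 0.0162, and without Lgr5-enriched replicate 1 0.0195 and 0.0258.

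The inner coat pair of Sec23 proteins, which activate the Sar1 GTPase, split in direction. Sec23b stood at 69.2, 54.3 and 64.3 TPM in the Lgr5-enriched, 150.1, 114 and 131 TPM in the goblet-enriched and 83.4, 55.8 and 69.3 TPM in the enterocyte-enriched libraries. The log2 fold change was 1.06 ± 0.18 in goblet-enriched against Lgr5-enriched cells (adjusted p = 0.00224). Sec23a instead had its lowest mean in the goblet-enriched and its highest in the enterocyte-enriched libraries, at 49.2, 48.8 and 40.6 TPM in Lgr5-enriched, 47.3, 33.6 and 29.2 TPM in goblet-enriched and 70.1, 55.5 and 55.6 TPM in enterocyte-enriched libraries. Its difference between goblet-enriched and enterocyte-enriched cells was -0.73 ± 0.19 (adjusted p = 0.0133), and against Lgr5-enriched cells it was -0.35 ± 0.19 (adjusted p = 0.179, and 0.0444 with the replicate block). An antisense gene, Gm17529, covers 8.9% of its exons, and whether the counting used strand is not given in the sources used here.

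The 4 Sec24 proteins, the cargo-binding adaptors of the coat, differed in direction among themselves. Sec24d (chromosome 3, 123267455 to 123365641, plus strand, GRCm38) stood at 48.5, 47.2 and 44.5 TPM in the Lgr5-enriched, 234, 158 and 164 TPM in the goblet-enriched and 39.1, 34.4 and 45.3 TPM in the enterocyte-enriched libraries. Its log2 fold change was 1.94 ± 0.17 against Lgr5-enriched (adjusted p = 7.12e-05) and 2.18 ± 0.17 against enterocyte-enriched cells (adjusted p = 4.6e-05), the largest of the COPII genes in both. Sec24a was at 38.2, 38.1 and 27.8 TPM in Lgr5-enriched, 113, 70.6 and 52.3 TPM in goblet-enriched and 20.5, 29.2 and 24.2 TPM in enterocyte-enriched libraries. The goblet-enriched libraries were above the others and far from each other. Its change of 1.10 ± 0.27 against Lgr5-enriched cells (adjusted p = 0.0134) was not called without Lgr5-enriched replicate 3 (adjusted p = 0.0562). Sec24c, the most abundant of the 4 in Lgr5-enriched and enterocyte-enriched cells, was at 125, 145 and 149 TPM in Lgr5-enriched, 152, 153 and 152 TPM in goblet-enriched and 130.4, 119.9 and 125 TPM in enterocyte-enriched libraries. No comparison called it in the fit described above, where goblet-enriched against enterocyte-enriched cells came nearest (adjusted p = 0.0549). That comparison was called with the replicate block (adjusted p = 0.0382), with array weights (0.00779) and under other alternatives, and the other comparisons under some as well. Sec24b was highest in the Lgr5-enriched libraries, at 52.6, 51.5 and 50.6 TPM, against 43.7, 41.4 and 38.8 TPM in goblet-enriched and 38.4, 36.9 and 34.6 TPM in enterocyte-enriched libraries. Its log2 fold change was -0.48 ± 0.11 for enterocyte-enriched (adjusted p = 0.00558) and -0.32 ± 0.11 for goblet-enriched cells, each against Lgr5-enriched cells (adjusted p = 0.0496). The former was not called after either rescaling, and the latter was called in 8 of 21 alternatives only. It was lost among others without Lgr5-enriched replicate 1, 2 or 3 or goblet-enriched replicate 2 or 3 or enterocyte-enriched replicate 1, 2 or 3 (adjusted p from 0.0528 to 0.14).

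In the outer coat, Sec31a was the COPII member with the highest mean level. It stood at 162, 205 and 203 TPM in Lgr5-enriched, 328, 342 and 348 TPM in goblet-enriched and 159, 168 and 181 TPM in enterocyte-enriched cells. The change was 0.84 ± 0.12 in goblet-enriched against Lgr5-enriched cells (adjusted p = 0.00122). Sec31b was scarce, at 0.61, 2.31 and 2.31 TPM in Lgr5-enriched, 0.536, 2.37 and 1.33 TPM in goblet-enriched and 1.96, 1.99 and 1.64 TPM in enterocyte-enriched libraries. The populations overlapped. Sec13, shared by the outer coat and the nuclear pore, changed by 0.60 ± 0.11 against Lgr5-enriched (adjusted p = 0.00427) and 0.37 ± 0.11 against enterocyte-enriched cells (adjusted p = 0.0251). The latter call was lost without goblet-enriched replicate 1 or 3 or enterocyte-enriched replicate 2 (adjusted p from 0.0573 to 0.0916).

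**Figure D3:**
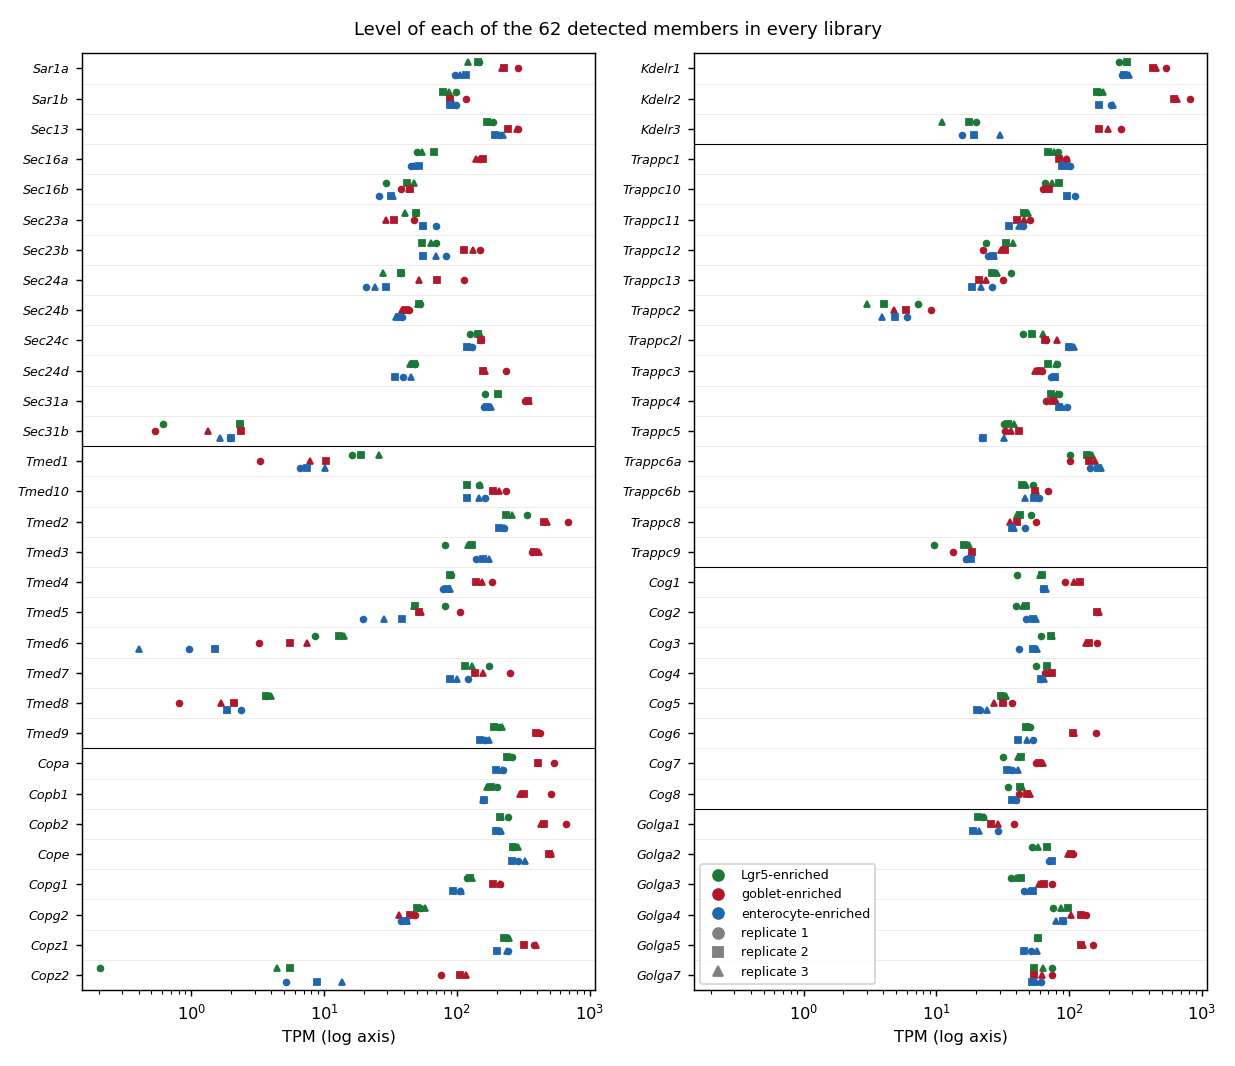
Level of each of the 62 detected members in every library (TPM, log axis), with 1 symbol per replicate and 1 colour per population, by class. The goblet-enriched symbols of Kdelr3 (169 to 245 TPM), Copz2 (76.3 to 117 TPM) and Sec24d (158 to 234 TPM) lie clear of all others, while among the Trappc genes those of Trappc3 (55.2 to 62.8 TPM) lie below all others and those of Trappc2l (65.8 to 81.5 TPM) between the other populations.

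Among the 10 tested genes of the p24 class, 5 were called higher and 3 lower in goblet-enriched than in Lgr5-enriched cells. The shares of all tested genes were 10.7% and 23.6%. The class was set by the Tmed symbol, and whether each of its proteins is a p24 cargo receptor was not checked. Tmed2, the member with the highest mean level, stood at 335, 237 and 258 TPM in the Lgr5-enriched, 693, 453 and 478 TPM in the goblet-enriched and 225, 208 and 225 TPM in the enterocyte-enriched libraries (0.96 ± 0.19 on the log2 scale, goblet-enriched against Lgr5-enriched, adjusted p = 0.00506). Tmed9 had the smallest F test p of the class and stood at 209, 189.5 and 219 TPM in Lgr5-enriched, 424, 395 and 409 TPM in goblet-enriched and 162, 149.5 and 174 TPM in enterocyte-enriched libraries. No 2 populations overlapped. It was higher by 0.99 ± 0.11 in goblet-enriched cells (adjusted p = 0.000282) and lower by a log2 fold change of -0.35 ± 0.11 in enterocyte-enriched cells (adjusted p = 0.0276), both against Lgr5-enriched cells. The second of these turned to 0.07 after median-of-ratios scaling and was not called without Lgr5-enriched replicate 1 or 3 or enterocyte-enriched replicate 1 or 2 (adjusted p from 0.0525 to 0.107). Tmed10, the partner of Tmed2, and Tmed4 were also called higher in goblet-enriched than in Lgr5-enriched cells, by 0.60 ± 0.16 and 0.82 ± 0.12 (adjusted p = 0.0171 and 0.00125). Tmed10 was not called without Lgr5-enriched replicate 2 (adjusted p = 0.0598).

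Tmed3 was called in all 3 comparisons, highest in goblet-enriched and lowest in Lgr5-enriched cells. Its levels were 81.5, 129 and 121 TPM in the Lgr5-enriched, 368, 381 and 414 TPM in the goblet-enriched and 140.3, 156 and 176 TPM in the enterocyte-enriched libraries. No 2 populations overlapped. The log2 fold changes were 1.83 ± 0.18 for goblet-enriched (adjusted p = 0.00014) and 0.53 ± 0.18 for enterocyte-enriched against Lgr5-enriched cells (adjusted p = 0.0342). The latter was not called without Lgr5-enriched replicate 1 or enterocyte-enriched replicate 2 or 3 (adjusted p from 0.075 to 0.109).

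Tmed1, Tmed6 and Tmed8 ran the other way and were highest in the Lgr5-enriched libraries. Tmed1 was at 16.1, 19 and 25.8 TPM there, at 3.30, 10.3 and 7.81 TPM in the goblet-enriched and at 6.58, 7.41 and 10.2 TPM in the enterocyte-enriched libraries. The change was -1.47 ± 0.35 for goblet-enriched (adjusted p = 0.0116) and -1.23 ± 0.35 for enterocyte-enriched cells (adjusted p = 0.0165). Exons of Dnm2 on the opposite strand cover 13.6% of its exons. The enterocyte-enriched call was lost without Lgr5-enriched replicate 3 or enterocyte-enriched replicate 1 (adjusted p from 0.0557 to 0.0635). Tmed6, a p24 protein best known from pancreatic islets, fell in steps from 8.55, 12.9 and 14.2 TPM to 3.25, 5.49 and 7.40 TPM in goblet-enriched and 0.964, 1.51 and 0.404 TPM in enterocyte-enriched cells, with as few as 2 recovered reads in the lowest library. It was higher by 1.69 ± 0.32 in goblet-enriched than in enterocyte-enriched cells (adjusted p = 0.00285). The change of -2.73 ± 0.32 for enterocyte-enriched against Lgr5-enriched cells (adjusted p = 0.000301) was the largest fall of any member and was called under all alternatives. That of -1.04 ± 0.32 for goblet-enriched cells (adjusted p = 0.0332) was not called without Lgr5-enriched replicate 2 or 3 or goblet-enriched replicate 1 or 2 (adjusted p from 0.0702 to 0.115). Tmed8 gave 3.63, 3.65 and 3.95 TPM in Lgr5-enriched, 0.806, 2.11 and 1.67 TPM in goblet-enriched and 2.38, 1.86 and 1.87 TPM in enterocyte-enriched libraries. The change was -0.94 ± 0.23 for goblet-enriched (adjusted p = 0.0133), not called without Lgr5-enriched replicate 3 (adjusted p = 0.0511). It was -0.65 ± 0.23 for enterocyte-enriched cells (adjusted p = 0.0412). The latter was not called without any 1 of the 3 Lgr5-enriched or the 3 enterocyte-enriched libraries (adjusted p from 0.0564 to 0.11), nor without goblet-enriched replicate 3 (adjusted p = 0.0571).

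Tmed5 was lower in enterocyte-enriched cells. It stood at 80.7, 48.1 and 47.7 TPM in the Lgr5-enriched, 106, 51.7 and 53.6 TPM in the goblet-enriched and 19.8, 38.4 and 28.1 TPM in the enterocyte-enriched libraries. Replicate 1 of the former populations was well above their replicates 2 and 3. The change was -1.01 ± 0.34 for enterocyte-enriched against Lgr5-enriched cells (adjusted p = 0.0329), not called without Lgr5-enriched replicate 1 or enterocyte-enriched replicate 1 or 3 (adjusted p from 0.0707 to 0.114). Tmed7 was called between goblet-enriched and enterocyte-enriched cells (0.78 ± 0.24, adjusted p = 0.0277), though not without goblet-enriched replicate 1 or enterocyte-enriched replicate 2 or 3 (adjusted p from 0.0679 to 0.0875), and with the replicate block also against Lgr5-enriched cells (adjusted p = 0.0253, against 0.275 without). Tmed1, Tmed3, Tmed5, Tmed6 and Tmed7 belong to the gamma branch of the p24 family, a grouping applied after the values were seen. Within the summed TPM of that branch, Tmed3 held 32.8% ± 9.1 (SD, n = 3) in Lgr5-enriched, 60% ± 8.4 in goblet-enriched and 52.7% ± 3.7 in enterocyte-enriched cells, and Tmed7, which overlaps Ticam2 on the same strand over 9.5% of its exons, 40.6% ± 6.7, 27.5% ± 6 and 34.7% ± 6.3.

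The COPI coatomer rose almost as a whole in goblet-enriched cells, 7 of its 8 measured subunits being higher there than in both other populations. Cope, the epsilon subunit, had the highest mean level over the 9 libraries and stood at 264, 267 and 286 TPM in the Lgr5-enriched, 504, 493 and 515 TPM in the goblet-enriched and 287, 262 and 325 TPM in the enterocyte-enriched libraries. The goblet-enriched values were close together and above all others. Its log2 fold change against Lgr5-enriched cells was 0.89 ± 0.11 (adjusted p = 0.000631). The large subunits Copa, Copb1 and Copb2 changed by 0.86, 0.99 and 1.17 (adjusted p from 0.00109 to 0.00445). In each of them goblet-enriched replicate 1 was the highest library.

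The gamma and zeta subunits exist as paralog pairs, in which 1 gamma paralog and both zeta paralogs were higher in goblet-enriched cells. Copg1 was at 119, 125 and 131 TPM in the Lgr5-enriched, 210.3, 188 and 213 TPM in the goblet-enriched and 106, 93.4 and 107 TPM in the enterocyte-enriched libraries (0.70 ± 0.11, adjusted p = 0.00169), and had the smallest F test p of the coatomer. With the replicate block its fall in enterocyte-enriched cells was also called (adjusted p = 0.0236, against 0.0535 without). Copg2 was at 53.1, 49.8 and 57.6 TPM in Lgr5-enriched, 48.1, 44.3 and 36.9 TPM in goblet-enriched and 38.2, 41.5 and 42.1 TPM in enterocyte-enriched libraries. Its change of -0.31 ± 0.13 for goblet-enriched cells missed the threshold (adjusted p = 0.0944). Its change of -0.39 ± 0.13 for enterocyte-enriched cells (adjusted p = 0.0345) turned to 0.02 after median-of-ratios scaling and was not called without Lgr5-enriched replicate 1 or 3 or goblet-enriched replicate 2 or enterocyte-enriched replicate 1, 2 or 3 (adjusted p from 0.0525 to 0.119). The imprinted neighbour Mest overlaps 17.8% of the Copg2 exons from the opposite strand.

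Copz2, the second zeta subunit, had the largest fold change of all members (chromosome 11, 96849870 to 96861203, plus strand, GRCm38). It was at 0.206, 5.55 and 4.39 TPM in the Lgr5-enriched, 76.3, 105 and 117 TPM in the goblet-enriched and 5.15, 8.89 and 13.7 TPM in the enterocyte-enriched libraries. The lowest value, in Lgr5-enriched replicate 1, rests on 2 recovered reads. The ratio of mean TPM, goblet-enriched to Lgr5-enriched, was 29.4. Left-out libraries moved it between 20 and 43.3. On the log2 scale the change was 4.82 ± 0.59 against Lgr5-enriched (adjusted p = 0.000456) and 3.36 ± 0.59 against enterocyte-enriched cells (adjusted p = 0.00194), and both were called under all 21 alternatives. Between enterocyte-enriched and Lgr5-enriched cells the change of 1.46 ± 0.59 missed the threshold (adjusted p = 0.0646) and passed it with the replicate block (adjusted p = 0.00937). Its ubiquitous paralog Copz1 was at 239, 226 and 245 TPM in Lgr5-enriched, 379, 319 and 392 TPM in goblet-enriched and 243, 202 and 239 TPM in enterocyte-enriched libraries. The goblet-enriched change was 0.61 ± 0.13 (adjusted p = 0.00629). Arcn1, the delta subunit, whose symbol lies outside the rule that chose the members, was called higher in goblet-enriched cells as well (0.68 ± 0.19, adjusted p = 0.0251).

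All 3 KDEL receptors were higher in goblet-enriched cells than in both other populations, the scarcest by the largest factor. Kdelr1 stood at 239.7, 274 and 272 TPM in the Lgr5-enriched, 539, 432 and 449 TPM in the goblet-enriched and 249.6, 258 and 282 TPM in the enterocyte-enriched libraries. The log2 fold change was 0.85 ± 0.13 in goblet-enriched against Lgr5-enriched cells (adjusted p = 0.00131). Kdelr2 was at 167, 162 and 179 TPM in Lgr5-enriched, 812, 616 and 647 TPM in goblet-enriched and 206, 168 and 213 TPM in enterocyte-enriched libraries. It changed by 2.01 ± 0.14 (adjusted p = 2.74e-05) against Lgr5-enriched and by 1.81 ± 0.14 against enterocyte-enriched cells (adjusted p = 5.06e-05), and was the most abundant of the 3 in goblet-enriched cells. Kdelr3 (chromosome 15, 79516411 to 79527739, plus strand, GRCm38) was at 19.98, 17.5 and 11.04 TPM in Lgr5-enriched, 245, 169 and 196 TPM in goblet-enriched and 15.7, 19.2 and 30.2 TPM in enterocyte-enriched libraries. The change was 3.59 ± 0.28 against Lgr5-enriched (adjusted p = 4.02e-05) and 3.2 ± 0.28 against enterocyte-enriched cells (adjusted p = 6.27e-05). No goblet-enriched library overlapped any other for these receptors, and none was called by limma or limma-voom between enterocyte-enriched and Lgr5-enriched cells (0 at an unadjusted p under 0.05), where the changes were 0.01, 0.20 and 0.39. After median-of-ratios scaling all 3 were called there (adjusted p = 0.0216, 0.0124 and 0.0481). Kdelr3 is the receptor whose promoter is printed above.

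Transcripts of ER chaperones and folding enzymes, a class with proteins that these receptors retrieve, were also higher in goblet-enriched cells. Whether each protein listed is retrieved by them was not checked. Of 17 resident ER chaperones and folding enzymes, 16 were called higher in goblet-enriched than in Lgr5-enriched cells (10.7% of all tested genes) and 17 higher than in enterocyte-enriched cells (28.2% of all), with medians of 1.15 and 1.36. Between enterocyte-enriched and Lgr5-enriched cells none was called higher by limma (12% of all tested genes), with 0 at an unadjusted p under 0.05. By limma-voom 0 were called higher, with 1 at an unadjusted p under 0.05. Called lower by limma were 2 (37.6% of all), Pdia4 (-0.56) and Hyou1 (-0.51). The median was -0.17, against -0.35 over all genes. The largest goblet-enriched changes against Lgr5-enriched cells were those of the disulfide isomerases Txndc5 (2.74 ± 0.16, adjusted p = 8.91e-06), Pdia3 (1.34 ± 0.32) and Pdia6 (1.32 ± 0.21) and of the secreted ER stress factor Manf (1.46 ± 0.27). Against enterocyte-enriched cells they were those of Txndc5 (2.54), Pdia6 (1.78), Hyou1 (1.77) and Manf (1.55). Hspa5 (BiP), the main ER chaperone, stood at 1430, 794 and 816 TPM in Lgr5-enriched, 2882, 1772 and 1864 TPM in goblet-enriched and 932, 784 and 836 TPM in enterocyte-enriched cells, with a change of 1.12 ± 0.26 (adjusted p = 0.0115). Hsp90b1 was not called against Lgr5-enriched cells, with 0.68 ± 0.31 (adjusted p = 0.122).

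**Figure D4:**
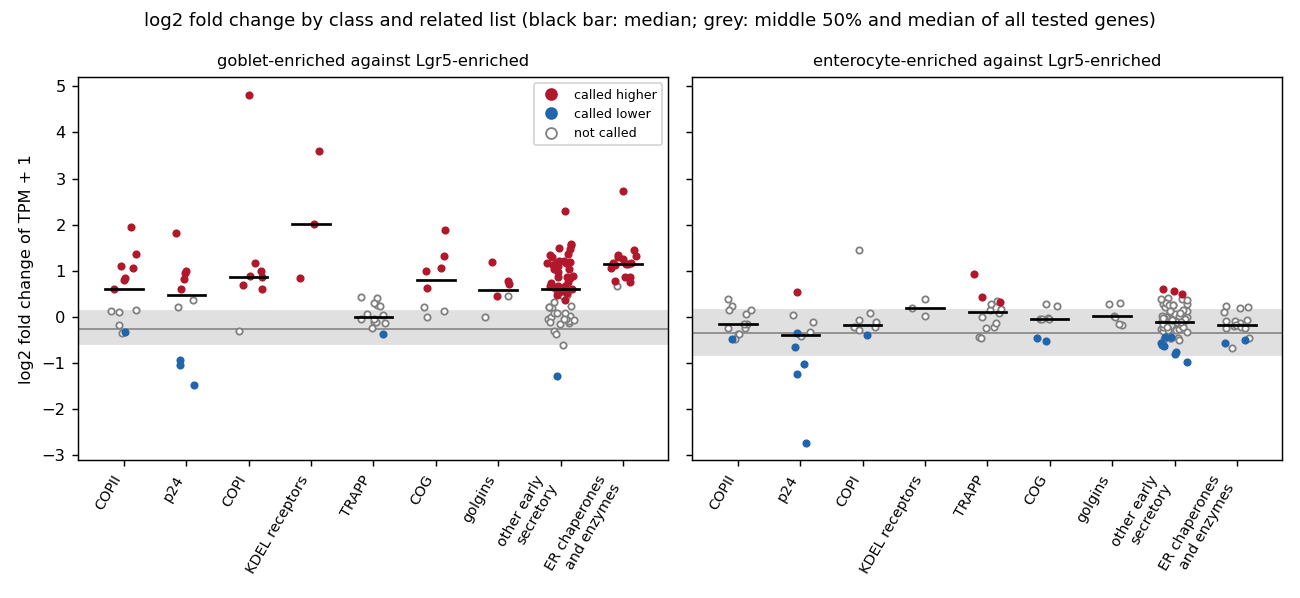
log2 fold change of TPM + 1 (vertical axis) of the tested genes of each class, of 65 other genes of the early secretory pathway and of 17 ER chaperones and enzymes, for goblet-enriched and enterocyte-enriched against Lgr5-enriched cells. In the goblet-enriched panel the black medians run from 0.01 for TRAPP to 2.01 for the KDEL receptors, above the all-gene median of -0.26, and in the enterocyte-enriched panel from -0.38 for p24 to 0.20 for the KDEL receptors.

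TRAPP, the tether that activates the Rab1 GTPase on incoming vesicles, had no subunit called higher in goblet-enriched than in Lgr5-enriched cells in the fit without a block and 3 with the replicate block, Trappc1, Trappc2l and Trappc6b (adjusted p = 0.0354, 0.0133 and 0.0328). Of its 14 tested subunits, limma without the block called 0 higher (10.7% of all tested genes) and 1 lower (23.6% of all) in that comparison. At an unadjusted p under 0.05, 1 was higher by limma. By limma-voom 0 were called higher, with 2 at an unadjusted p under 0.05. Against enterocyte-enriched cells, limma called 1 higher (28.2% of all) and 3 lower (15.9% of all) in goblet-enriched cells. The summed level was 723, 733 and 789 TPM in Lgr5-enriched, 744, 756 and 793 TPM in goblet-enriched and 874, 833 and 873 TPM in enterocyte-enriched libraries. The enterocyte-enriched libraries were above all others. The difference between classes was not tested, since members are not replicates.

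Trappc3, a core subunit that anchors the complex to membranes, was the 1 that fell. It stood at 81.5, 69.96 and 80.1 TPM in the Lgr5-enriched, 62.8, 60.2 and 55.2 TPM in the goblet-enriched and 72.9, 78.9 and 77.4 TPM in the enterocyte-enriched libraries. The goblet-enriched values were below all others. The log2 fold change of -0.37 ± 0.11 against Lgr5-enriched cells (adjusted p = 0.0311) was lost without Lgr5-enriched replicate 1 or 3 or goblet-enriched replicate 2 or 3 or enterocyte-enriched replicate 2 (adjusted p from 0.0503 to 0.109). That of -0.36 ± 0.11 against enterocyte-enriched cells (adjusted p = 0.0279) was lost without goblet-enriched replicate 2 or 3 or enterocyte-enriched replicate 2 or 3 (adjusted p from 0.068 to 0.0908).

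Trappc2l and Trappc10 were highest in enterocyte-enriched cells. Trappc2l, the subunit with the smallest F test p, was at 45.4, 53.1 and 63.7 TPM in the Lgr5-enriched, 66.98, 65.8 and 81.5 TPM in the goblet-enriched and 99.2, 100.3 and 108 TPM in the enterocyte-enriched libraries. No 2 populations overlapped. Its change of 0.92 ± 0.15 for enterocyte-enriched against Lgr5-enriched cells (adjusted p = 0.00106) was called under all alternatives. That of -0.52 ± 0.15 for goblet-enriched against enterocyte-enriched cells (adjusted p = 0.0189) was lost without goblet-enriched replicate 2 or enterocyte-enriched replicate 3 (adjusted p from 0.0594 to 0.0673). With the replicate block it was also higher in goblet-enriched than in Lgr5-enriched cells (adjusted p = 0.0133, against 0.0617 without). Trappc10, a subunit of the TRAPPII form that acts later at the Golgi, gave 66.2, 83.8 and 74.7 TPM in Lgr5-enriched, 63.5, 70.9 and 68.9 TPM in goblet-enriched and 111, 95.9 and 96.96 TPM in enterocyte-enriched libraries. It was higher by 0.43 ± 0.13 in enterocyte-enriched than in Lgr5-enriched cells (adjusted p = 0.0177), a call lost without Lgr5-enriched replicate 1 or 3 or enterocyte-enriched replicate 1 (adjusted p from 0.0519 to 0.0595). It was lower by a log2 fold change of -0.57 ± 0.13 in goblet-enriched than in enterocyte-enriched cells (adjusted p = 0.0059). Trappc1, a small core subunit, was at 83.2, 70.1 and 77.7 TPM in Lgr5-enriched, 94.4, 84.7 and 97.2 TPM in goblet-enriched and 102, 89.3 and 96.8 TPM in enterocyte-enriched libraries. Its enterocyte-enriched change of 0.32 ± 0.12 (adjusted p = 0.0469) was called in 12 of 21 alternatives.

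The paralogs Trappc6a and Trappc6b, which occupy the same place in the core, were not called in any comparison of the fit without a block. Trappc6a, the most abundant subunit, was at 101, 137 and 148 TPM in Lgr5-enriched, 102, 141 and 158 TPM in goblet-enriched and 145, 166 and 176 TPM in enterocyte-enriched cells. Trappc6b was at 53.6, 44.05 and 47.8 TPM in Lgr5-enriched, 69.7, 55.9 and 56.2 TPM in goblet-enriched and 59.7, 54.5 and 46.6 TPM in enterocyte-enriched libraries. Trappc6a overlapped between all populations, with the least in replicate 1 of each, and with the replicate block Trappc6a was called higher in enterocyte-enriched cells than in Lgr5-enriched (adjusted p = 0.0175, against 0.174 without) and in goblet-enriched cells (adjusted p = 0.0352, against 0.253). Both of these were called after median-of-ratios scaling too (0.00661 and 0.0465). Trappc5 was called between goblet-enriched and enterocyte-enriched cells, at 0.53 ± 0.18 (adjusted p = 0.0351), and 10 of 21 alternatives lost that call. Of Trappc2, Trappc4, Trappc8, Trappc9, Trappc11, Trappc12 and Trappc13, none was called in any comparison of that fit, though all but Trappc8 were under at least 1 alternative, with changes of -0.25 to 0.43 for goblet-enriched against Lgr5-enriched cells. Rps25, a ribosomal protein gene on the opposite strand, overlaps 18.9% of the Trappc4 exons.

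COG, which tethers vesicles that recycle glycosylation enzymes within the Golgi, rose in goblet-enriched cells through 5 of its 8 subunits. Cog2 (chromosome 8, 124520767 to 124552008, plus strand, GRCm38), with the smallest F test p of all members, stood at 40.2, 47.3 and 44.8 TPM in the Lgr5-enriched, 163, 162 and 168 TPM in the goblet-enriched and 47.6, 53.5 and 56.1 TPM in the enterocyte-enriched libraries. The goblet-enriched libraries were close together and above all others, with a log2 fold change of 1.88 ± 0.11 against Lgr5-enriched (adjusted p = 9.71e-06) and 1.63 ± 0.11 against enterocyte-enriched cells (adjusted p = 3.53e-05). Cog3, the subunit with the highest mean level, was at 61.6, 73.7 and 74.02 TPM in Lgr5-enriched, 162, 141 and 134 TPM in goblet-enriched and 42.2, 53.2 and 57.8 TPM in enterocyte-enriched libraries. No 2 populations overlapped. It changed by 1.05 ± 0.15 in goblet-enriched (adjusted p = 0.00104) and -0.45 ± 0.15 in enterocyte-enriched against Lgr5-enriched cells (adjusted p = 0.0322). The latter was not called without Lgr5-enriched replicate 2 or 3 or enterocyte-enriched replicate 1 or 2 (adjusted p from 0.0573 to 0.104).

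Cog1, Cog6 and Cog7 were called higher in goblet-enriched than in Lgr5-enriched cells too, by 0.99, 1.32 and 0.63. Fam104a overlaps 22.4% of the Cog1 exons from the opposite strand. Cog1 to Cog4 form lobe A and Cog5 to Cog8 lobe B of the complex, and both lobes held called and uncalled subunits: Cog4 (0.13), Cog8 (0.21) and Cog5 were not called against Lgr5-enriched cells, although Cog4 and Cog8 were after median-of-ratios scaling (adjusted p = 0.0338 and 0.0307). Cog5 stood at 31.5, 30.8 and 33.6 TPM in Lgr5-enriched, 37.3, 31.9 and 27.1 TPM in goblet-enriched and 21.4, 20.3 and 23.95 TPM in enterocyte-enriched cells. The enterocyte-enriched libraries were below all others. Its change of -0.53 ± 0.15 against Lgr5-enriched cells (adjusted p = 0.0143) was not called without Lgr5-enriched replicate 3 or enterocyte-enriched replicate 2 (adjusted p from 0.0533 to 0.0535) or after either rescaling. Exons of Hbp1 on the opposite strand cover 24% of its own. For Cog8 the gene Pdf covers 28.2% of the exons on the same strand, so reads of the pair may be split between them.

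Of the 6 Golga genes, 4 were higher in goblet-enriched cells than in both other populations. Golga5, a membrane-anchored golgin of the Golgi rims, stood at 57.4, 58.3 and 58.7 TPM in the Lgr5-enriched, 151, 124 and 129 TPM in the goblet-enriched and 51.5, 45.4 and 57.6 TPM in the enterocyte-enriched libraries. Its change of 1.19 ± 0.13 against Lgr5-enriched cells (adjusted p = 0.000222) was the largest of the class, and the goblet-enriched libraries were above all others. Golga2, the cis-Golgi golgin that docks vesicles carrying the tether Uso1, and Golga3 changed by 0.78 ± 0.12 and 0.71 ± 0.13 (adjusted p = 0.00165 and 0.00378). Golga4, a golgin of the trans-Golgi network and the most abundant of the class, was at 76.03, 97.9 and 87.1 TPM in Lgr5-enriched, 134, 122 and 103 TPM in goblet-enriched and 90.9, 89.8 and 79.8 TPM in enterocyte-enriched libraries. Its change of 0.45 ± 0.14 (adjusted p = 0.0348) was lost without Lgr5-enriched replicate 1 or 3 or goblet-enriched replicate 1 or 2 or enterocyte-enriched replicate 2 (adjusted p from 0.0517 to 0.0962). Against enterocyte-enriched cells, Golga3 was not called without goblet-enriched replicate 1 or 2 or enterocyte-enriched replicate 1 or 3 (adjusted p from 0.0686 to 0.0928). Golga4 was not called without goblet-enriched replicate 1 or 2 or enterocyte-enriched replicate 2 or 3 (adjusted p from 0.0582 to 0.0901). Golga2 was not called there after median-of-ratios scaling (adjusted p = 0.0643).

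Golga1, the other trans-Golgi golgin of the list, and Golga7, which is a partner of a palmitoyltransferase and not a coiled-coil tether, were not called in the fit without a block. Golga1 changed by 0.46 ± 0.20 in goblet-enriched against Lgr5-enriched cells (adjusted p = 0.101, and 0.0226 with the replicate block), and Golga7 by -0.01 ± 0.16 (adjusted p = 0.968).

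Because paralogs fill the same place in a coat, the share of each in its group's summed TPM was set out for every library, as a description with no test. In 7 of 9 paralog groups at least 1 paralog's share in goblet-enriched cells did not overlap that in either other population. The shares of a pair mirror each other, and how often paralog groups outside the members separate in this way was not counted. Sec24d held 17.1% ± 1 (SD, n = 3) of the Sec24 transcripts in Lgr5-enriched, 40.2% ± 2.8 in goblet-enriched and 17.5% ± 2.1 in enterocyte-enriched cells. Sec24c held 51.2% ± 3.7, 33.9% ± 5 and 55.3% ± 1.5 in the same order. Sec24c led in the Lgr5-enriched and enterocyte-enriched populations. In goblet-enriched replicates 1, 2 and 3 Sec24d held 43%, 37.4% and 40.2% and Sec24c 28.1%, 36.1% and 37.4%. The lead of Sec24d there was thus wide in replicate 1 and narrow in replicates 2 and 3. In Lgr5-enriched, goblet-enriched and enterocyte-enriched cells Sec23b held 57.5% ± 4.4, 78.3% ± 3 and 53.3% ± 2.8 of its pair. Sec16a held 59.4% ± 5.3, 78% ± 1.9 and 61.7% ± 2.3, and Sar1a 60.9% ± 3.3, 71.2% ± 0.44 and 53.3% ± 3.5.

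In the COPI pairs, Copz2 went from 1.41% ± 1.2 in Lgr5-enriched to 21.5% ± 4.2 in goblet-enriched cells, with 3.9% ± 1.7 in enterocyte-enriched cells, and Copg1 from 70% ± 1.3 to 82.5% ± 2.4, with 71.5% ± 2.1. The KDEL receptors changed their order: Kdelr1 led in Lgr5-enriched (58.5% ± 2.1) and enterocyte-enriched cells (54.9% ± 2.7) and Kdelr2 in goblet-enriched cells (50.5% ± 0.42), where Kdelr3 held 14.8% ± 0.79 against 3.64% ± 1.2 and 4.47% ± 1.2. The shares of Sec24a (12.7% ± 2.2, 16.8% ± 4 and 10.9% ± 2.2) and of the Sec31 and Trappc6 pairs overlapped between goblet-enriched and other cells.

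**Figure D5:**
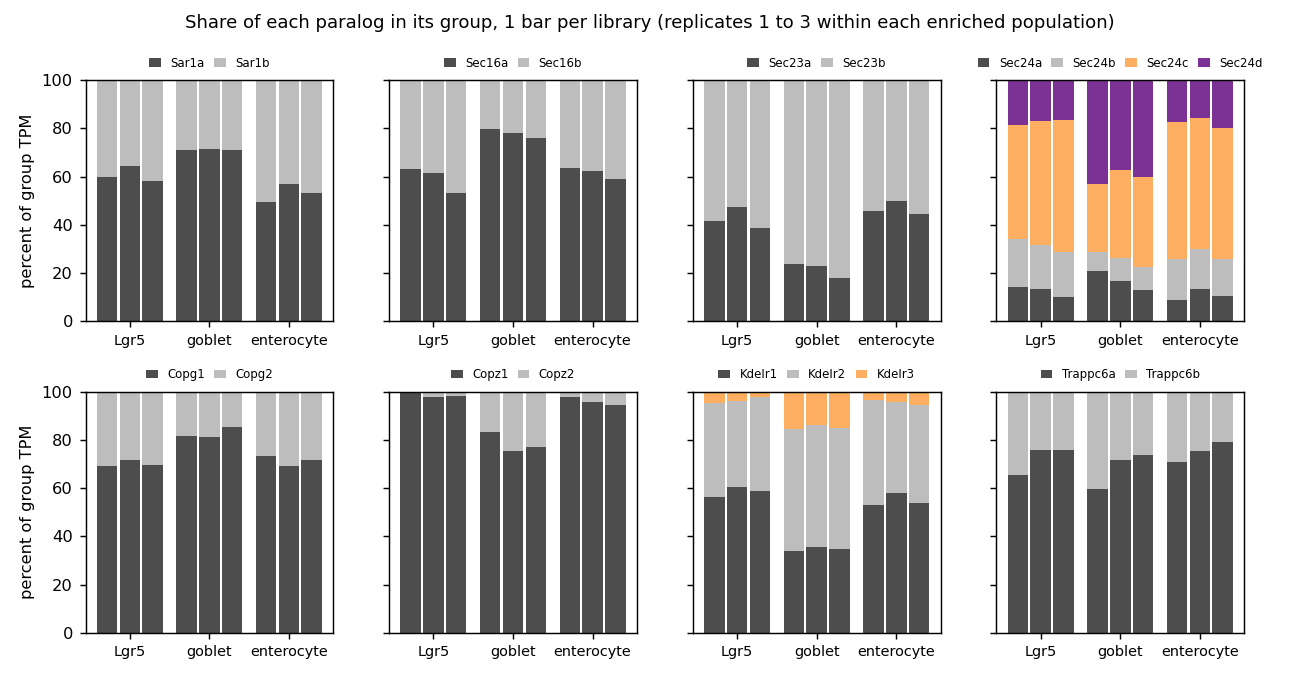
Percent of the summed TPM of a paralog group held by each member (vertical axis), with 1 stacked bar per library, for 8 groups. The goblet-enriched bars show Sec24d at 40.2%, Copz2 at 21.5% and Kdelr3 at 14.8% on average, against 17.1%, 1.41% and 3.64% in Lgr5-enriched cells, while the Trappc6 bars overlap.

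Of 65 further genes of the early secretory pathway tested, 38 were higher and 1 lower in goblet-enriched than in Lgr5-enriched cells, where 10.7% and 23.6% of all tested genes were, and 26 were not called. Against enterocyte-enriched cells 45 were higher and 2 lower (28.2% and 15.9% of all). In enterocyte-enriched against Lgr5-enriched cells 3 were higher and 8 lower (12% and 37.6% of all). The medians were 0.61, 0.67 and -0.10, against -0.26, 0.20 and -0.35 over all genes. Mia3 (TANGO1), which loads bulky cargo at exit sites, led the goblet-enriched rise at 55.05, 59.3 and 47.7 TPM in Lgr5-enriched, 316, 284 and 216 TPM in goblet-enriched and 57.2, 66.2 and 63.5 TPM in enterocyte-enriched libraries (2.30 ± 0.16, adjusted p = 2.1e-05). It was followed by the mannose-binding cargo receptor Lman1 (1.59 ± 0.22), the SNARE Bet1l (1.55 ± 0.16) and Yipf3 (1.49 ± 0.16). Cnih4, a cornichon cargo receptor, was the gene that fell, from 34.6, 26.4 and 31.9 TPM in Lgr5-enriched to 13.5, 9.91 and 13.03 TPM in goblet-enriched cells (-1.28 ± 0.16, adjusted p = 0.000573).

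Against enterocyte-enriched cells, Lman1 (2.40), Mia3 (2.09), the cargo receptor Ergic1 (2.07) and the trans-Golgi golgin Gcc2 (1.82) led, and Cnih4 (-1.54) and the GTPase Arf3 (-0.50) were lower. Enterocyte-enriched cells were lower than Lgr5-enriched cells in Bcap29 (-0.98), Lman1 (-0.81), Ctage5 (-0.75), a partner of Mia3, and Klhl12 (-0.64), an adaptor for ubiquitination of Sec31, among others. They were higher in Yif1a (0.60), Rab1b (0.56) and Arf3 (0.50).

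Of 13 transcription factors and activators known for secretory capacity, 11 were called higher in goblet-enriched than in Lgr5-enriched cells (10.7% of all tested genes) and 13 higher than in enterocyte-enriched cells (28.2% of all). The largest changes against Lgr5-enriched cells were those of the goblet cell factors Spdef (6.65 ± 0.19, adjusted p = 1.6e-07) and Atoh1 (5.81 ± 0.22, adjusted p = 5.57e-07). The 2 not called there were Creb3l2 (0.15 ± 0.18, adjusted p = 0.542) and Atf6b (0.25 ± 0.13, adjusted p = 0.147). Creb3l2, of the CREB3L family, was at 14.6, 11.2 and 12.03 TPM in Lgr5-enriched, 17.02, 12.6 and 12.7 TPM in goblet-enriched and 6.90, 5.94 and 5.93 TPM in enterocyte-enriched libraries. Its goblet-enriched and Lgr5-enriched libraries overlapped, and the enterocyte-enriched ones were below both. Xbp1 stood at 262, 196 and 169.6 TPM in Lgr5-enriched, 805, 766 and 719 TPM in goblet-enriched and 248, 269.5 and 267 TPM in enterocyte-enriched libraries. Ern2, an activator of Xbp1 splicing found in mucous epithelia, was at 55.2, 97.3 and 88.2 TPM in Lgr5-enriched, 376, 537 and 429 TPM in goblet-enriched and 80.3, 106 and 114 TPM in enterocyte-enriched libraries. Creb3l1, which drives coat and cargo genes in secretory cells, was at 332, 448 and 474 TPM in Lgr5-enriched, 1323, 1459 and 1698 TPM in goblet-enriched and 252, 326 and 401 TPM in enterocyte-enriched libraries. The goblet-enriched libraries were above all others for each of these. Creb3l4 was at 12.7, 14.6 and 17.6 TPM in Lgr5-enriched, 338, 334 and 308 TPM in goblet-enriched and 27.5, 40.6 and 59.1 TPM in enterocyte-enriched libraries. Bhlha15 (Mist1) was at 2.19, 0.59 and 0.406 TPM in Lgr5-enriched, 39.95, 27 and 27.1 TPM in goblet-enriched and 3.69, 2.28 and 3.54 TPM in enterocyte-enriched libraries. Creb3l4 and Bhlha15 had enterocyte-enriched libraries between the other populations.

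The summed goblet markers moved with the members only in part. From Lgr5-enriched to goblet-enriched cells both the marker sum and 6 of the 7 class sums were higher. The enterocyte-enriched libraries held goblet markers at 15547 to 23177 TPM. Their member sum was 4980 to 5442 TPM, beside 5307 to 5482 TPM in the Lgr5-enriched libraries. That marker sum joins markers of unlike pattern. In goblet-enriched and enterocyte-enriched cells Zg16 had means of 345 and 5481 TPM and Tff3 of 1120 and 1918 TPM. Muc2 went the other way, at 11438 and 1207 TPM, as did Spdef (690 and 58.4 TPM), Spink4, Agr2, Reg4 and Atoh1. The part of cells with goblet markers in the member levels of enterocyte-enriched cells was not tested. Tuft markers (7 in the table) summed to 61.6 TPM in goblet-enriched replicate 3, against at most 19.7 TPM elsewhere. Without the library labelled enterocyte-enriched replicate 1, the goblet-enriched against enterocyte-enriched comparison called 34 members higher and 4 lower, and the enterocyte-enriched against Lgr5-enriched comparison 2 higher and 3 lower, so the latter counts rest in part on that library.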

How the data were processed

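Poly-A RNA of 9 sorted libraries was measured. The authors deposited 1 table of log2 TPM values, in which a TPM below 1 stands as TPM minus 1, as the values show: back-transformed columns sum to 1000000. The submitters' processing notes list Cufflinks and mm10 without saying for what. The annotation and strand setting were not given in the sources used here. Per the labels' protocols, some libraries were read from both ends and some from 1, on different Illumina instruments, and no label used here says which.

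Values were turned back to TPM. Whole reads were recovered for 18386 of 18396 genes above 0 (99.95%, tolerance 1e-06, lengths up to 20000 bases), as lower bounds, giving 11.2 M to 26.8 M reads a library. limma 3.58.1 in R 4.3.3 was fitted to log2(TPM + 1) with 1 mean per population and a variance trend, over 12888 genes at or above 1 TPM in at least 3 libraries, with 6 residual and 3.21 prior degrees of freedom and Benjamini-Hochberg adjustment. Fold changes on that scale understate the change of low genes. The script was tested on simulated data. Tables were handled in Python 3.11.15 with pandas 2.3.3 and numpy 2.4.6. Promoters came from RefSeq and gene positions from GENCODE M21, and all 64 members were found in the name tables.

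Per the labels, each replicate is an independent mouse and 3 mice gave 9 samples. Same-numbered libraries deviated together from their population means (r from 0.194 to 0.601 over genes, all 9 pairs), so the numbers were taken to pair the samples, and blocked values are given where they change a call. Among the libraries numbered 1, the sex-linked genes of the enterocyte-enriched one differed from those of the others, so that number joins different animals. The r of that library was still 0.348 with Lgr5-enriched replicate 1 and 0.279 with goblet-enriched replicate 1. A shared deviation therefore does not show a shared mouse, and calls gained with the replicate block rest on the numbering alone. The p-values measure the spread between these libraries. Genes with values in every library were named by rule: the 5 largest called changes in each direction per comparison, all paralogs, and in each class the gene with the highest mean and that with the smallest F test p. Arcn1, the overlapping genes and the transcription factors and activators given fall outside it and were chosen after their values were seen. The members and lists were chosen with earlier results of these data known. Alternatives were other pseudocounts, filters and scalings, array weights, no variance trend, fits on fewer samples, the replicate block, each library left out, and limma-voom on the recovered reads, which was chosen after seeing the data.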

Additional observations from a re-analysis of the deposited data

How the results depend on the processing

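Of 186 member contrasts, 89 were called and 60 kept the call in all 21 alternatives: 29 of 36 for goblet-enriched against Lgr5-enriched, 29 of 40 for goblet-enriched against enterocyte-enriched and 2 of 13 for enterocyte-enriched against Lgr5-enriched cells. Members called higher in goblet-enriched cells numbered 30 to 36 against Lgr5-enriched and 28 to 40 against enterocyte-enriched cells, members higher there than in both others 26 to 33, and members called by the F test 38 to 52. Members lower in goblet-enriched than in Lgr5-enriched cells (5) numbered 8 with array weights, 2 with limma-voom, 2 with median-of-ratios scaling, 2 with quantile normalization, 3 with only the 2 populations compared and 1 to 5 with a library left out; those lower than in enterocyte-enriched cells (4) numbered 2 to 4 with a library left out. Members higher in enterocyte-enriched than in Lgr5-enriched cells (4) numbered 11 with array weights, 10 with limma-voom, 25 with median-of-ratios scaling, 12 with quantile normalization, 2 with only the 2 populations compared, 10 with the replicate block, 7 without replicate 1 of all populations and 2 to 5 with a library left out. Members lower there (9) numbered 19, 4, 1 and 2 under the first 4 of these settings, 15 with the replicate block, 15 without replicate 1 of all populations and 3 to 11 with a library left out. Members higher in Lgr5-enriched cells than in both others (4) numbered 1 with limma-voom, 0 with median-of-ratios scaling, 0 with quantile normalization, 2 with no filter, 2 with a pseudocount of 0.1 TPM and 0 to 3 with a library left out, and those higher in enterocyte-enriched cells (2) 6 with median-of-ratios scaling, 4 with the replicate block and 1 to 2 with a library left out. Copg2 and Tmed9, called lower in enterocyte-enriched than in Lgr5-enriched cells, turned to 0.02 and 0.07 with median-of-ratios scaling. For these changes the cause was not tested, beyond the fewer libraries or genes that a setting holds. With the replicate block (paired) 0 calls were lost and 22 gained, and no other call changed. Depth limits Copz2 and Tmed6, whose lowest libraries rest on 2 reads, and Tmed11 and Trappc3l, which were not detected.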
